A study of Mus musculus with 11 samples.

Results

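Of 38509 consensus regions of open chromatin in mouse CD4 T cells, 487 (1.26%) formed the set described here, the peaks whose signal was higher in regulatory T (Treg) cells than in each of 3 other CD4 populations. Each peak's signal was averaged per group on the log2(signal + 1) scale. A peak was kept where the Treg mean exceeded the means of anergic, Teff and naive cells by at least 0.7 each, a 1.62-fold margin. Because the members were chosen by these group means, every Treg level and margin is given as a description with no test.

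Chromatin accessibility was measured by ATAC-seq, in which a transposase cuts and tags open DNA. All 4 populations were sorted from mixed spleen and lymph node of wild-type, untreated C57BL/6 mice with a Foxp3-GFP reporter and a polyclonal receptor repertoire, and were not cultured. Treg cells (3 libraries) were sorted as FOXP3+ CD25+. Anergic cells (3 libraries) were CD44high FOXP3- with high CD73 and FR4 and with NRP1, Teff cells (3 libraries) were CD44high FOXP3- with low CD73 and FR4, and naive cells (2 libraries) were CD44low. FOXP3 and CD25, the product of Il2ra, were sort markers, so peaks at Foxp3 and Il2ra are not independent of the gates. The labels do not give the animals' ages. They also do not say whether each replicate is its own animal, and the p-values below cover the variation among these libraries, which may be technical.

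Treg cells restrain other lymphocytes and depend on the transcription factor FOXP3 and on interleukin-2, which signals through CD25 and STAT5. Their suppressive equipment includes the inhibitory receptor CTLA-4 and GARP, the Lrrc32 product that holds latent TGF-beta on the cell surface. NF-kB factors downstream of the T cell receptor and TNF receptors, and the NR4A nuclear receptors that T cell receptor signals induce, both take part in Treg development.

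The sequences of 9 Treg-high peaks are shown. Those at Lrrc32 +73.2 kb, Foxp3, Ncf1 and Ctla4 had wide margins, those at Il2ra and Cish lie at genes of the interleukin-2 pathway, and those at Lrrc32 +45.4 kb, Ppm1b and Phlpp1 are examples with the NR4A letters. Capitals mark matches, on either strand, to TTCNNNGAA (STAT) or AAAGGTCA (NR4A), and each run is the plus strand of GRCm38 (mm10), 5′ to 3′, cut to the central 300 bases where the peak is longer. None overlaps an annotated exon.
Lrrc32 +73.2 kb, chr7:98563002-98563301: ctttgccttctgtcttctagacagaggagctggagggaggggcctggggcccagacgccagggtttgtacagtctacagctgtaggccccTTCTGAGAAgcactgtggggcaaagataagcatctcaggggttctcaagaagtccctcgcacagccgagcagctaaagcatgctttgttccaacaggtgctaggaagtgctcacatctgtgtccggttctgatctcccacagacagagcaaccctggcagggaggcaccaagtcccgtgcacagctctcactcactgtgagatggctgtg
Lrrc32 +45.4 kb, chr7:98535279-98535506: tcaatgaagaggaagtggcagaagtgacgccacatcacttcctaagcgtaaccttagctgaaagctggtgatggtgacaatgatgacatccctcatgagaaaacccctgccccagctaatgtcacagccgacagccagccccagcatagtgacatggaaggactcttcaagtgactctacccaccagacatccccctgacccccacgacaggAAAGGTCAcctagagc
Foxp3 +3.57 kb, intron, chrX:7583906-7584205: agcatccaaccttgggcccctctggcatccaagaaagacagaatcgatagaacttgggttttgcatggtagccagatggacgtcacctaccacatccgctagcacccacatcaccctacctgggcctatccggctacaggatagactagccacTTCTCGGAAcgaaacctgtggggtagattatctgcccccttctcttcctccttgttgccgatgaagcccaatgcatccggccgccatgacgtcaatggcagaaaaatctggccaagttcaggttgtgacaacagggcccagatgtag
Ncf1 -23.9 kb, intron of Gtf2i, chr5:134253357-134253656: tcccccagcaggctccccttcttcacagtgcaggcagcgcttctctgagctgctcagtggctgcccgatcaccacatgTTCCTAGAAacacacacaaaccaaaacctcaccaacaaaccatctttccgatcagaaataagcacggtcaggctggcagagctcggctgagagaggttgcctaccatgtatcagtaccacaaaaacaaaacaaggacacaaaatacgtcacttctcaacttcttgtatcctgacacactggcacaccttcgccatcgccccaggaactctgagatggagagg
Il2ra -7.59 kb, chr2:11635057-11635352: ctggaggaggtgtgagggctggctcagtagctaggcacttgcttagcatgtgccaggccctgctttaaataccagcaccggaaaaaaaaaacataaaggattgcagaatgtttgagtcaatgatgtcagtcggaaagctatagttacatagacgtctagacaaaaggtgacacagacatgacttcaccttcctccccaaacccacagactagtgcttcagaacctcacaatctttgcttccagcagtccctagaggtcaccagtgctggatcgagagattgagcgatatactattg
Ctla4 -21.8 kb, chr1:60887039-60887338: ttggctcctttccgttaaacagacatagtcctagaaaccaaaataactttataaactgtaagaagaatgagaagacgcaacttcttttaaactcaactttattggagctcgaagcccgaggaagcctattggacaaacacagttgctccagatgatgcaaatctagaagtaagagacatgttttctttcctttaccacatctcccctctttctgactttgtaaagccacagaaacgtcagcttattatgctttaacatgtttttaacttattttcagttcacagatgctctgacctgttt
Cish +1.64 kb, intron, chr9:107298161-107298442: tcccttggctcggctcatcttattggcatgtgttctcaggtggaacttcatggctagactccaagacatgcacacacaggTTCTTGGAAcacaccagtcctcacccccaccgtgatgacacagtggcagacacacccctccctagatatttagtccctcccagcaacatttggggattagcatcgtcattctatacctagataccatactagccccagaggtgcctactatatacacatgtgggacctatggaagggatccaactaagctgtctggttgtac
Ppm1b -63.2 kb, chr17:84893379-84893678: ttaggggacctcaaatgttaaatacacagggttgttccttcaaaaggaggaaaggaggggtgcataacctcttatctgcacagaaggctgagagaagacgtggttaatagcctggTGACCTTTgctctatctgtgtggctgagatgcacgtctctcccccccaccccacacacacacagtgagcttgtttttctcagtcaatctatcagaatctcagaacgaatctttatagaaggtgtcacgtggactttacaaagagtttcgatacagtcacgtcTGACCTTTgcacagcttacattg
Phlpp1 intron, chr1:106318450-106318714: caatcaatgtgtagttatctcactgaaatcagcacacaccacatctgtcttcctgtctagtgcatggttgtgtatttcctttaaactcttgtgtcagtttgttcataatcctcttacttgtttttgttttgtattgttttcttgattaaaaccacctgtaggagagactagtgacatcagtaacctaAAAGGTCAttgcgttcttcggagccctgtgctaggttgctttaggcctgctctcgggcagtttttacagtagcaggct
A STAT match is in the widest Lrrc32 run and in those of Foxp3, Ncf1 and Cish, and Ppm1b holds the NR4A letters in 2 places. The Il2ra and Ctla4 runs hold neither. The runs were picked, so how often they match says nothing of the whole set, whose shares are given with the motif counts.

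The deposited signal is the number of reads in a peak times a factor for the library, and 1 read was worth 0.527 to 2.13 units. Reads in peaks ranged from 14.7 to 68.8 M per library. All 487 peaks passed the filter on low reads, as did 38493 of all peaks. The set had a median of 199 reads per peak in the Treg libraries over its chromosome members, and 4 peaks averaged under 20 reads there.

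The name "open only in Treg cells" did not describe most of the set. The next highest group had a mean signal of at least 50 at 463 of 487 peaks (95.1%) and of at least 100 at 335 (68.8%). Only 7 peaks had a next highest group more than 10-fold below the Treg mean. The median margin was 0.91 log2 (1.88-fold), with 202 peaks at 1 or more, 38 at 2 or more and 13 at 3 or more. They are therefore called Treg-high peaks below. In sorted bulk cells, fewer cells with a site open and less opening per cell cannot be told apart. By the same rule 2634 peaks were highest in anergic, 1318 in Teff and 2688 in naive cells. The Treg count moved with the scaling, to 776 with libraries scaled to equal totals. The other groups' counts are given on the deposited scale only.

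**Figure D1:**
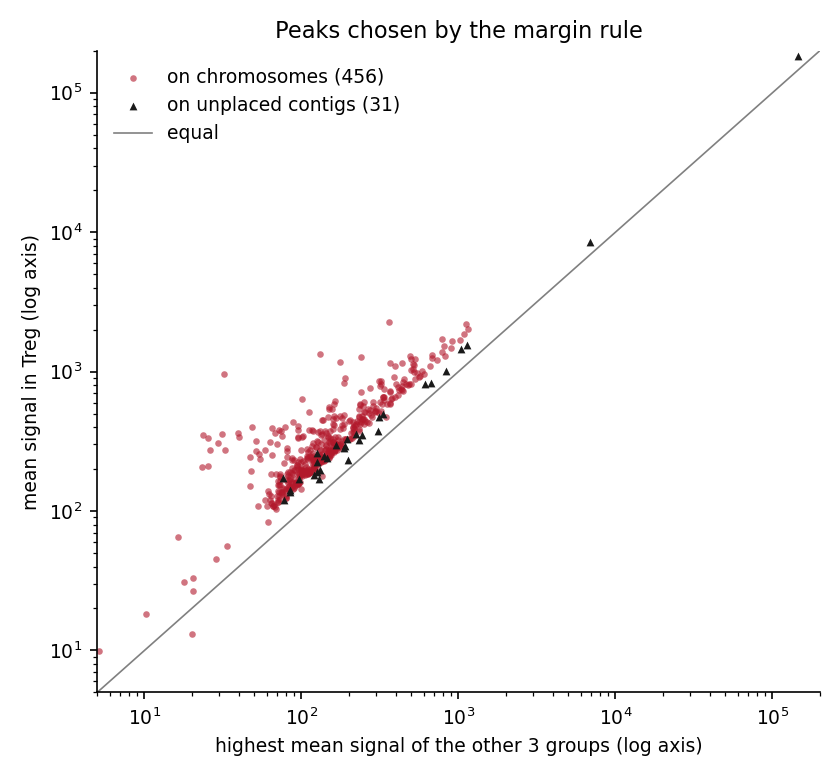
Mean deposited signal in Treg cells (vertical) against the highest mean of the other 3 groups (horizontal), both on log axes, for the 487 Treg-high peaks, with the line of equal signal. Most points lie a short way above the line, and the 31 peaks on unplaced contigs (triangles) follow it up to the highest signals.

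The 31 peaks on unplaced contigs stood apart from the other 456. They were 45.6% of the 68 contig peaks, against 1.19% of the 38441 chromosome peaks. Their summed signal was 136488, 302561 and 174245 in the Treg libraries, 225860, 26549 and 46106 in anergic, 50773, 77478 and 352064 in Teff, and 38446 and 56238 in naive libraries. The 3 libraries with the highest sums, Teff replicate 3, Treg replicate 2 and anergic replicate 1, were also the 3 with the fewest reads in peaks (20.9, 14.7 and 21.5 M). At 0 of the 31 did every Treg library exceed every other library. The part of depth in the contig signal was not tested.

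On chromosomes the median signal of the Treg-high peaks was 271, 275 and 294 in the Treg libraries. It was 115, 106 and 102 in anergic, 81.7, 86.7 and 95 in Teff, and 87.3 and 89.0 in naive libraries. Over all chromosome peaks the same median was 208 to 225 in every library. The set's median was above that range in Treg cells and below it in the other 3 groups. Every Treg library stood above every library of the other groups at 416 of the 487 peaks (85.4%), against 3.78% of all peaks. Both shares follow from the same contrast that the rule used.

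Choosing peaks from 2 Treg libraries left the third as values that the rule had not used on the Treg side. With Treg replicate 1, 2 or 3 held out, 600, 487 and 522 peaks were chosen. The held-out library exceeded the next highest group at 575, 478 and 493 of them. It exceeded that group by the full 0.7 at 53.8%, 66.9% and 65.3% of them, against 1.41%, 2.11% and 1.82% of all peaks. The other groups' values were the same in choosing and checking, so part of the gap from all peaks was fixed by the choice. The held-out shares are given as a description.

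Just inside the threshold were peaks nearest to Msi2 (margin 0.7005), Insig1 (0.7011) and Slc5a9 (0.7013). Just outside were peaks nearest to Ccr7 (0.6983), Ankrd55 (0.6980) and Mrtfa (0.6971). The Msi2 peak averaged 264 in Treg and 161 in naive cells, and the Ccr7 peak averaged 162 in Treg and 98.2 in naive cells.

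The Treg-high peaks lay mainly away from gene starts. Of the 456 on chromosomes, 413 (90.6%) were over 1000 bases from the nearest start site, against 66.8% of all chromosome peaks, and 43 (9.43%) were promoter peaks, against 33.2%. Of the chromosome peaks highest in anergic, Teff or naive cells by the same rule, 91.3%, 92.6% and 92.9% were over 1000 bases from a start, so this position was not particular to the Treg-high peaks. Introns held 49.6% of the set and 43.2% of all peaks, intergenic sequence 44.3% and 38.6%, and 5′ UTRs 1.54% and 10.1%. The distal members were a median of 17.7 kb from a start, against 15.1 kb for all distal peaks. The set's peaks were narrower, with a median width of 248 bases against 369.

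Some loci held several Treg-high peaks. They were nearest to 359 genes, of which 52 had at least 2 and 20 at least 3. Another Treg-high peak lay within 50 kb of 162 (35.5%) of the 456. Joined in steps of up to 50 kb, they formed 22 groups of 3 or more. No like counts are given for all peaks or for the other groups' peaks, so these describe the set alone. The share of a chromosome's peaks in the set ran from 0.350% on chromosome 14 to 1.91% on chromosome 16.

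Lrrc32 was the densest locus. All 12 peaks in a stretch of 92.4 kb were members, 11 nearest to Lrrc32 and 1 to Emsy, with margins of 2.16 to 4.85 log2. The widest margin of the whole set, 28.8-fold, lay 73.2 kb past the Lrrc32 start in intergenic sequence (chr7:98562942-98563362). That peak's signal was 854, 1141 and 893 in the Treg libraries, 31.5, 19.5 and 11.4 in anergic, 8.31, 21.5 and 66.7 in Teff, and 32.5 and 31.7 in naive libraries. The Teff libraries spanned the range of the anergic and naive ones, and no contrast among these groups passed the test. The promoter peak, 0.254 kb upstream, had the highest signal at the locus, with 2187, 2280 and 2332 in the Treg libraries. It had 378, 302 and 401 in anergic, 172, 203 and 380 in Teff, and 214 and 303 in naive libraries.

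The Lrrc32 peaks did not share 1 order among the other 3 groups. An intronic peak at +1.98 kb had 1305, 1090 and 1404 in the Treg libraries, 295, 237 and 191 in anergic, 22.2, 30.6 and 96.7 in Teff, and 12.2 and 6.97 in naive libraries. There anergic cells were 2.52 ± 0.36 log2 above Teff (standard error, limma adjusted p = 1.07e-05), with the groups not overlapping. At +45.4 kb, the peak with the NR4A letters, the order of those groups was the reverse. It held 337, 375 and 329 in the Treg libraries, 24.9, 10.0 and 18.1 in anergic, 72.7, 80.1 and 73.3 in Teff, and 2.44 and 9.29 in naive libraries. The signal fell by 2.12 ± 0.40 log2 in anergic cells against Teff (limma adjusted p = 0.000275), and Teff were 3.68 ± 0.45 above naive cells (limma adjusted p = 9.87e-07). At +34.1 kb naive cells were the next highest. That peak held 303, 230 and 289 in the Treg libraries, 31.5, 12.7 and 17.5 in anergic, 24.9, 24.0 and 26.7 in Teff, and 64.2 and 52.6 in naive libraries. There the signal fell by 1.55 ± 0.39 log2 in anergic cells against naive cells (limma adjusted p = 0.00185). Over the 11 Lrrc32 peaks, anergic cells were higher than Teff at 2, lower at 2 and without a call at 7. Of all tested peaks, 32.8% were called in this contrast, 15.9% as higher and 16.8% as lower in anergic cells.

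**Figure D2:**
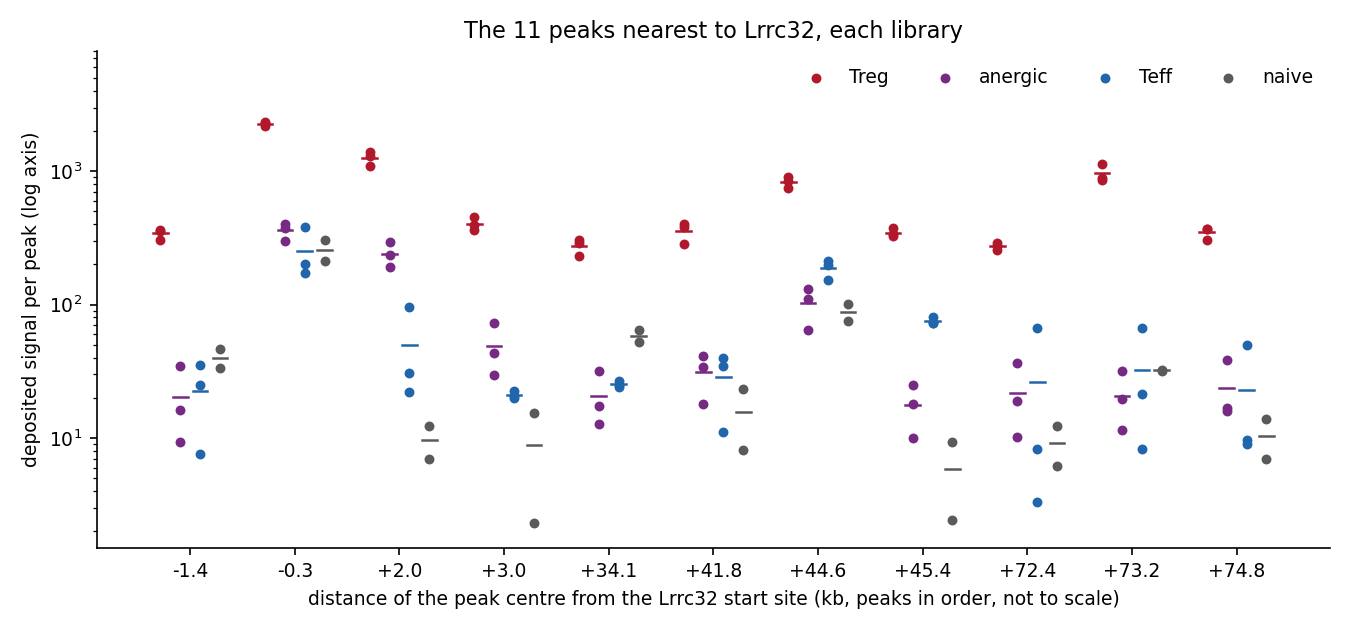
Deposited signal of each library (dots, log axis) and group mean (bars) at the 11 peaks nearest to Lrrc32, in order of distance of the peak centre from its start site in kb. Treg libraries lie above all others at every peak, while the order of anergic, Teff and naive libraries changes from peak to peak, as between +2.0 and +45.4 kb.

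Foxp3 had 1 peak and it was a member, in its intron at +3.57 kb (chrX:7583720-7584393, 10.3-fold margin). The conserved intronic element CNS2, which is demethylated in stable Treg cells, lies in this part of the gene. Signals were 1597, 1118 and 1278 in the Treg libraries, 184, 114 and 96.1 in anergic, 15.9, 14 and 63.3 in Teff, and 15.4 and 7.74 in naive libraries. Upstream, 2 further members were nearest to Flicr, the long non-coding RNA gene beside Foxp3, at -5.87 and -7.11 kb of its start and within introns of Ppp1r3f. Their order among the other groups differed from that of the Foxp3 intron. The -5.87 kb peak held 1194, 1049 and 1234 in the Treg libraries, 204, 198 and 159 in anergic, 501, 469 and 345 in Teff, and 364 and 352 in naive libraries. In anergic cells the signal fell by 1.22 ± 0.16 log2 against Teff (limma adjusted p = 4.21e-06), whereas at the Foxp3 intron anergic cells were 2.33 ± 0.41 above Teff (limma adjusted p = 0.000106).

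Il2ra, which encodes the interleukin-2 receptor alpha chain, had 6 members among its 13 peaks. The 3 upstream members and the 3 intronic members differed in their next highest group. By their means, naive cells were next at -7.59, -7.08 and -6.67 kb, and anergic cells were next at +8.89, +12.4 and +12.7 kb. At -7.08 kb naive cells passed the test against anergic cells but not against Teff. At +12.4 kb anergic cells passed against naive cells but not against Teff. At +12.7 kb the libraries of the other groups overlapped and no contrast passed. The -7.59 kb peak held 349, 402 and 391 in the Treg libraries, 54.7, 29.5 and 24.9 in anergic, 37.4, 35.5 and 61.7 in Teff, and 95.1 and 95.2 in naive libraries. The signal fell by 1.45 ± 0.34 log2 in anergic cells against naive cells (limma adjusted p = 0.000996). The +8.89 kb peak held 518, 436 and 558 in the Treg libraries, 275, 248 and 285 in anergic, 203, 216 and 175 in Teff, and 102 and 108 in naive libraries. Here anergic cells were 1.35 ± 0.19 log2 above naive cells (limma adjusted p = 3.39e-06), with no overlap.

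Ctla4 had 2 members among 21 peaks. The wider margin, 6.14-fold, was 21.8 kb upstream (chr1:60886928-60887450, intergenic). It held 694, 492 and 724 in the Treg libraries, 109, 97.0 and 98.1 in anergic, 52.6, 36.3 and 66.7 in Teff, and 9.75 and 13.9 in naive libraries. The 4 groups followed each other without overlap. Anergic cells were 0.99 ± 0.27 log2 above Teff (limma adjusted p = 0.00643, and 0.0513 without Teff replicate 2), and Teff were 2.02 ± 0.30 above naive cells (limma adjusted p = 1.42e-05). At the other member, 1.4 kb upstream, naive libraries held 271 and 149, and no contrast among the 3 groups passed.

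Of 36 genes on a list of Treg identity genes with a peak, 11 held a member (30.6%), against 359 of 14248 genes (2.52%). The 36 genes had 253 peaks, and all 14248 genes had 38441, so the shares by gene are not alike in peaks per gene. By peaks the shares were 31 of 253 (12.3%), against 1.19% of all chromosome peaks. Lrrc32 gave 11 of the 31 and Il2ra 6, and Foxp3 and Il2ra encode sort markers. The list was chosen with earlier results of these data known. Beside Lrrc32, Foxp3, Il2ra and Ctla4, the genes with a member were Cd83, Swap70, Gpr83, Tnfrsf9, Socs2, Tnfrsf1b and Icos. No member lay nearest to Ikzf2, with 17 peaks, or Ikzf4, with 1, which encode the Treg factors Helios and Eos, and Ebi3 had no peak. At Cd83, an immunoglobulin superfamily surface protein of activated cells, a peak 19.7 kb upstream held 497, 570 and 591 in the Treg libraries, 134, 141 and 175 in anergic, 32.5, 42.9 and 70.0 in Teff, and 28.4 and 26.3 in naive libraries. Anergic cells exceeded Teff there by 1.67 ± 0.26 log2 (limma adjusted p = 2.68e-05).

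Gpr83, a G protein-coupled receptor gene active in mouse Treg cells, had a member over its 5′ UTR. Its signal was 1151, 1188 and 1341 in the Treg libraries, 396, 407 and 390 in anergic, 320, 264 and 335 in Teff, and 522 and 541 in naive libraries. The signal fell by 0.80 ± 0.15 log2 in Teff against naive cells (limma adjusted p = 0.000216). Swap70, which encodes an actin-binding signalling protein, had 4 members among 5 peaks. Its intronic peak at +32.4 kb held 288, 275 and 439 in the Treg libraries, 174, 145 and 136 in anergic, 29.1, 31.4 and 45.0 in Teff, and 88.6 and 53.4 in naive libraries. The other groups did not overlap, and anergic cells were 2.10 ± 0.27 log2 above Teff (limma adjusted p = 2.63e-06).

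The TNF receptor and costimulation genes with members were Tnfrsf9 (4-1BB), Tnfrsf1b (TNFR2) and Icos, 3 of 14 (21.4%). They held 3 of the list's 119 peaks (2.52%, against 1.19% of all chromosome peaks). The Tnfrsf1b peak, in an intron at +24.9 kb, held 1158, 1337 and 1270 in the Treg libraries, 726, 800 and 514 in anergic, 515, 641 and 382 in Teff, and 286 and 267 in naive libraries. Its margin was 1.87-fold, and anergic cells exceeded naive cells by 1.27 ± 0.20 log2 (limma adjusted p = 1.07e-05). The Tnfrsf9 intron peak held 294, 302 and 298 in the Treg libraries, 144, 154 and 130 in anergic, 121, 69.4 and 96.7 in Teff, and 127 and 137 in naive libraries. Anergic cells were 0.60 ± 0.21 log2 above Teff (limma adjusted p = 0.0344), a call that was lost without anergic replicate 1 or 2 and without Teff replicate 2 or 3 (0.39 to 0.63), without the 3 shallowest libraries (0.62), with libraries scaled to equal totals (0.58) and on log2(CPM + 1) (0.43). The Icos peak, 124 kb past the start, had a margin of 0.70 and no call among the other groups.

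**Figure D3:**
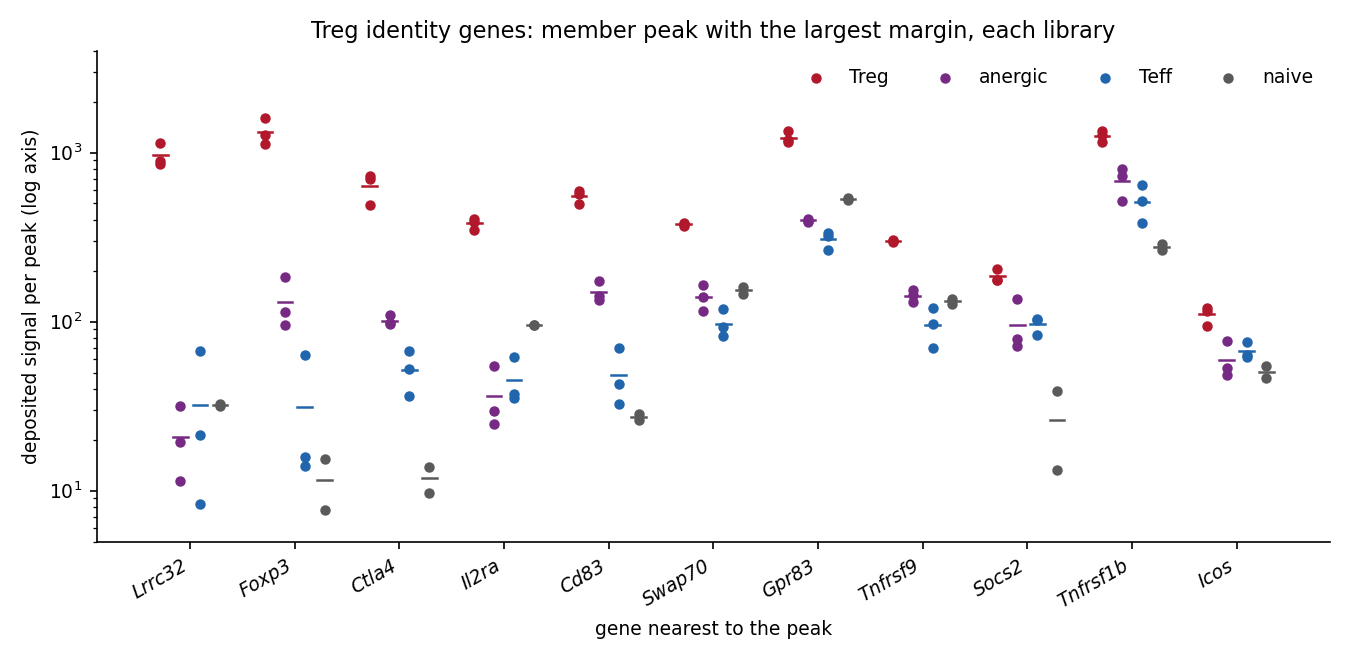
Deposited signal of each library (dots, log axis) and group mean (bars) at the widest-margin member of each of the 11 Treg identity genes that held one, ordered by margin. Treg libraries are highest at each peak, and margins run from 28.8-fold at Lrrc32 to 1.63-fold at Icos.

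At the 222 peaks of the identity genes that were not members, anergic cells were higher than Teff at 95 and lower at 34, with a median of 0.33 log2, against 6005 and 6429 of 37970 and a median of 0.00 at all peaks outside the set. Teff cells were higher than naive cells at 125 of the 222 and lower at 21, with a median of 0.83, against 8632 and 6616 of 37970 and a median of -0.03 outside the set. Their median margin of Treg over the next group was negative, -0.17 over all 253 identity peaks against -0.37 over all chromosome peaks.

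In the interleukin-2 and STAT5 list, 5 of 18 genes (27.8%, against 2.52% of all genes) held 12 members among 137 peaks (8.76%, against 1.19% of all chromosome peaks), at Cish, Il2ra, Mcl1, Socs2 and Stat5b. Il2ra gave 6 of the 12. Cish and Socs2 encode feedback inhibitors of cytokine signalling. The Cish intron peak, with its STAT match, held 375, 515 and 449 in the Treg libraries, 113, 169 and 132 in anergic, 87.2, 162 and 108 in Teff, and 33.3 and 34.8 in naive libraries. Anergic and Teff libraries overlapped, and both groups exceeded naive cells, by 1.96 ± 0.27 (limma adjusted p = 2.41e-06) and 1.73 ± 0.27 log2 (limma adjusted p = 2.36e-05). A second Cish peak at +6.61 kb held 324, 345 and 292 in the Treg libraries, 201, 135 and 81.9 in anergic, 42.2, 58.6 and 86.7 in Teff, and 6.50 and 3.1 in naive libraries. Teff cells were 3.46 ± 0.38 log2 above naive cells (limma adjusted p = 2.48e-07). Both Socs2 members were promoter peaks and were likewise lowest in naive cells. The one with the wider margin (1.92-fold), 0.220 kb from a start, held 177, 177 and 205 in the Treg libraries, 136, 71.7 and 78.6 in anergic, 83.8, 104 and 102 in Teff, and 39.0 and 13.2 in naive libraries. The other (1.66-fold) had 1240, 1109 and 1270 in the Treg libraries, 474, 368 and 475 in anergic, 665, 794 and 717 in Teff, and 176 and 169 in naive libraries. At the list's 125 other peaks, anergic cells were higher than Teff at 14 and lower at 35, with a median of -0.22, against 6005 and 6429 of 37970 and a median of 0.00 outside the set.

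The TGF-beta list had 3 of 14 genes with members, Lrrc32, Itgav and Skil, with 13 of 132 peaks (9.85%), of which Lrrc32 gave 11. Itgav encodes the alpha-V integrin chain, which takes part in freeing TGF-beta, and Skil a repressor of SMAD signalling. The Itgav peak at -28.8 kb held 434, 432 and 448 in the Treg libraries, 225, 249 and 224 in anergic, 41.5, 60.3 and 41.7 in Teff, and 8.12 and 27.1 in naive libraries. Anergic cells were 2.28 ± 0.30 log2 above Teff (limma adjusted p = 4.73e-06). Inhibitory receptors had members at 2 of 10 genes, Ctla4 and Cd5, with 3 of 74 peaks (4.05%). Transcription factors had 7 of 42 genes (16.7%), namely Bach2, Ets1, Foxo1, Foxp1, Nr4a1, Stat3 and Tox, but these genes have many peaks, and 13 of the list's 659 were members (1.97%), close to the 1.19% of all chromosome peaks. Homing receptors had 1 of 19, Cxcr5, the follicular homing receptor, with 1 of 172 peaks (0.581%). Genes for nucleotide and cAMP handling (0 of 9, with 49 peaks) and effector cytokines (0 of 14, with 90 peaks) had none, against 2.52% of all genes with a member. With 1.19% of all chromosome peaks in the set, lists of this size can lack a member without differing from other genes.

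Among the transcription factor genes the members again differed in their order. The Foxp1 peak at -73.9 kb held 172, 126 and 119 in the Treg libraries, 63.0, 60.6 and 61.1 in anergic, 8.31, 6.61 and 28.3 in Teff, and 3.25 and 13.2 in naive libraries. Anergic cells were 2.29 ± 0.51 log2 above Teff (limma adjusted p = 0.00127). The Nr4a1 intron peak, at a gene that T cell receptor signals induce, held 383, 411 and 437 in the Treg libraries, 191, 114 and 126 in anergic, 135, 214 and 202 in Teff, and 158 and 283 in naive libraries. No contrast among the 3 groups passed there, and without naive replicate 1 or 2 its margin was 0.53 or 1.18. Bach2, a repressor of effector programs, held 3 members, and at the intronic peak at +7.80 kb anergic cells exceeded naive cells by 1.25 ± 0.29 log2 (limma adjusted p = 0.00095).

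Other wide margins lay at genes outside the lists. The peak second in margin, 16.2-fold, was nearest to Ncf1, which encodes an NADPH oxidase subunit, but lay in an intron of Gtf2i, 23.9 kb from the Ncf1 start. It held 314, 255 and 434 in the Treg libraries, 41.4, 6.33 and 12.8 in anergic, 7.61, 17.3 and 41.7 in Teff, and 42.2 and 8.52 in naive libraries. The 3 other groups overlapped and no contrast passed. At these low values single libraries weighed on the margin, which was 2.92 log2 without naive replicate 2 against 4.01 with it, and 2.75 on log2(CPM + 1). An intergenic peak 75.1 kb from the Fggy start had a 10.6-fold margin, A1cf (an RNA-binding cofactor) 10.3-fold, Asprv1 (a skin protease) 9.61-fold and Dgat2 (triglyceride synthesis) 8.23-fold. The Dgat2 peak held 247, 315 and 253 in the Treg libraries, 18.2, 13.7 and 17.5 in anergic, 20.1, 25.6 and 26.7 in Teff, and 26.8 and 37.9 in naive libraries.

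The Ppm1b peak, 63.2 kb upstream of a phosphatase gene, carried the NR4A letters in 2 places. Its signals were 1182, 1013 and 1309 in the Treg libraries, 262, 149 and 122 in anergic, 18, 25.6 and 60.0 in Teff, and 13.0 and 25.5 in naive libraries. Anergic cells were 2.43 ± 0.35 log2 above Teff without overlap (limma adjusted p = 1.28e-05). The Mxd1 peak, in an intron of this MYC antagonist gene, held 270, 373 and 306 in the Treg libraries, 31.5, 18.5 and 24.9 in anergic, 31.8, 30.6 and 63.3 in Teff, and 52.0 and 50.3 in naive libraries. The Phlpp1 peak, in an intron of a gene for a phosphatase of AKT kinases, averaged 302 ± 29.3 in Treg, 35.9 ± 23.8 in anergic and 32.5 ± 16.4 in Teff cells (SD, n = 3 each), and 56.9 and 82.1 in the naive libraries.

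The Mxd1 peak closed an 82.3 kb stretch with 5 members among 9 peaks, the other 4 nearest to Asprv1.

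The other loci with most members were Cd2 (6 of 20 peaks), Trib1 (6 of 23), Dusp4 (5 of 11) and the long non-coding gene Gm16157 (5 of 11). Cd2 encodes an adhesion receptor of T cells. Its peak at -12.4 kb had the widest margin there (4.46-fold), with 378, 522 and 628 in the Treg libraries, 144, 85.4 and 72.5 in anergic, 71.3, 94.2 and 63.3 in Teff, and 109 and 113 in naive libraries. Another, at -9.47 kb, was low in anergic cells alone among the 3, with 676, 732 and 846 in the Treg libraries, 89.5, 120 and 98.1 in anergic, 253, 429 and 318 in Teff, and 210 and 255 in naive libraries. There it fell by 1.67 ± 0.19 log2 in anergic cells against Teff (limma adjusted p = 7.95e-07).

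All 6 Trib1 members lay in introns of Nsmce2, 47.9 to 126 kb upstream of Trib1, a pseudokinase gene. Dusp4 encodes a phosphatase of MAP kinases. Its most distant member, 51.2 kb upstream, held 376, 247 and 303 in the Treg libraries, 153, 150 and 156 in anergic, 35.3, 33.9 and 10.0 in Teff, and 13.0 and 13.2 in naive libraries. Anergic cells were 2.68 ± 0.36 log2 above Teff (limma adjusted p = 5.85e-06). The 5 Gm16157 members lay in introns of Fam169b, and anergic cells were higher than Teff at 4 of them, by 0.74 to 1.36 log2, a call made at 25.7% of all Treg-high peaks and 15.9% of all peaks.

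Among the 43 promoter members, Lrrc32 had the widest margin (6.32-fold). Next came Sdc4 (syndecan-4, 5.53-fold), Coro2a (a coronin, 4.44-fold), Mir7212 (3.50-fold) and Pgpep1l (2.70-fold). The Sdc4 peak held 288, 309 and 208 in the Treg libraries, 66.3, 26.9 and 24.9 in anergic, 33.2, 38 and 81.7 in Teff, and 34.9 and 18.6 in naive libraries, and the 3 other groups overlapped. At Coro2a the naive libraries stood apart at 4.06 and 9.29. That peak held 252, 243 and 220 in the Treg libraries, 73.0, 48.5 and 41.6 in anergic and 40.2, 52.0 and 55.0 in Teff, and Teff cells were 2.78 ± 0.39 log2 above naive cells (limma adjusted p = 4.99e-06). The Mir7212 peak lay in an intron of Retreg1.

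The rule used the highest of the anergic, Teff and naive means, but not the order of these groups. Their differences were tested, each against the share of all peaks called. A peak where any of these groups came close to Treg could not be a member. Part of the gaps from all peaks, in calls and in the next highest group, can therefore follow from the choice. For anergic against Teff, 173 of 487 Treg-high peaks were called (35.5%), against 32.8% of all tested peaks. Anergic cells were higher at 125 (25.7%, background 15.9%) and lower at 48 (9.86%, background 16.8%), with a median of 0.16 log2 against 0.00. Without anergic replicate 1 there were 105 higher and 74 lower. The total was near the background. This background is not matched to the set, as promoter peaks were 33.2% of all chromosome peaks and 9.43% of the members there. On chromosomes the members' median signal was 109, 88.7 and 87.2 in anergic, Teff and naive cells, against 218, 217 and 212 over all peaks. No share for matched peaks is given.

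For anergic against naive, 221 were called (45.4%, background 50.5%). Anergic cells were higher at 155 (31.8%, background 25.3%) and lower at 66 (13.6%, background 25.1%), with a median of 0.26 against -0.04. For Teff against naive, 166 were called (34.1%, background 40.1%), 105 higher in Teff (21.6%, background 22.7%) and 61 lower (12.5%, background 17.4%). The contrasts share libraries pairwise. Over the 456 chromosome members alone the called shares were 37.9% for anergic against Teff, 48.2% for anergic against naive and 35.7% for Teff against naive. On chromosomes, 162 of 456 members (35.5%) had no call in any of the 3 contrasts, against 38.4% of all peaks. The next highest group after Treg was anergic at 226 of the 487 peaks (46.4%), Teff at 131 (26.9%) and naive at 130 (26.7%). Over all peaks the highest of these groups was anergic at 33.7%, Teff at 23.2% and naive at 43.1%.

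**Figure D4:**
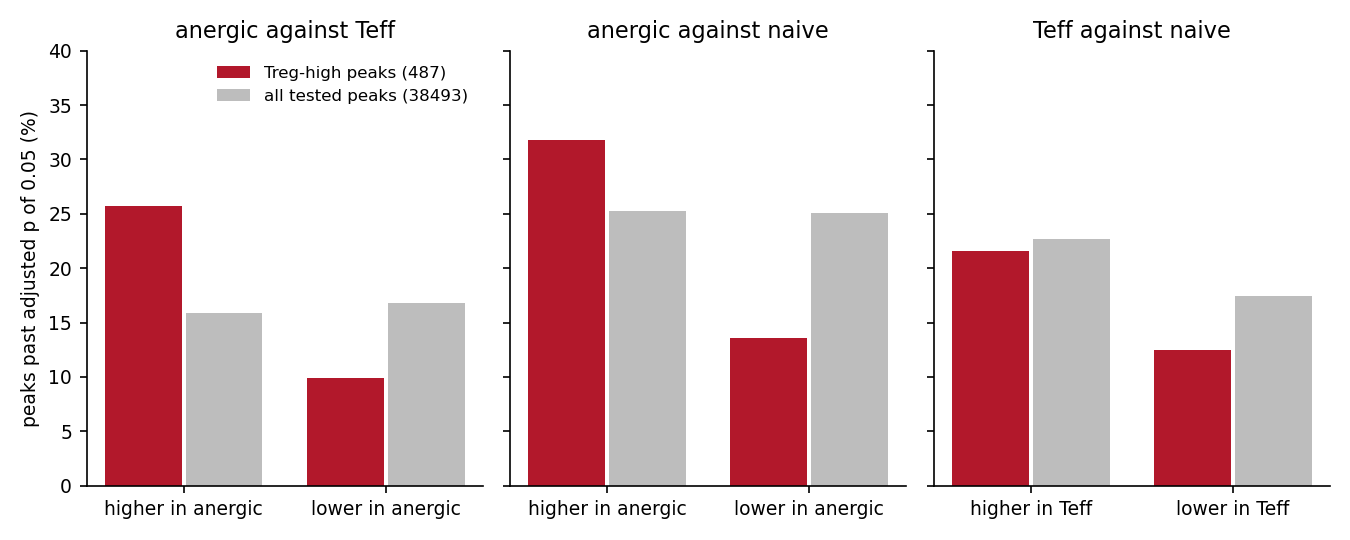
Share of peaks past a limma adjusted p of 0.05 (vertical, %) in each direction for the 3 contrasts among the other groups, for the 487 Treg-high peaks and for all 38493 tested peaks. Peaks higher in anergic cells than in Teff made up 25.7% of the Treg-high peaks and 15.9% of all peaks.

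The member highest in anergic over Teff cells lay in an intron of Arrdc1, an arrestin domain gene. It held 305, 287 and 319 in the Treg libraries, 181, 131 and 187 in anergic, 7.61, 7.43 and 11.7 in Teff, and 2.44 and 7.74 in naive libraries. Anergic cells were 4.09 ± 0.37 log2 above Teff (limma adjusted p = 3.38e-08), and the anergic libraries did not overlap those of Teff or naive cells. Gsta1, a glutathione transferase gene, followed with 2.78 ± 0.43 (limma adjusted p = 2.63e-05).

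The lowest was in an intron of Sorcs2, a sorting receptor gene, with 193, 245 and 289 in the Treg libraries, 33.2, 38 and 14.8 in anergic, 111, 130 and 120 in Teff, and 110 and 152 in naive libraries. In anergic cells it fell by 2.13 ± 0.30 log2 against Teff (limma adjusted p = 9.15e-06). The Fggy peak fell by 1.84 ± 0.61 in anergic cells against Teff (limma adjusted p = 0.0233), a call that was lost without anergic replicate 2 or 3, without Teff replicate 2 or 3, and by DESeq2 (values -1.33 to -1.81).

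Between Teff and naive cells, the highest member beside those at Lrrc32 and Cish lay 11.3 kb upstream of Tmprss6, a membrane protease gene. It held 2509, 1718 and 1861 in the Treg libraries, 1451, 712 and 960 in anergic, 1009, 914 and 1513 in Teff, and 165 and 71.2 in naive libraries. Teff cells were 3.35 ± 0.29 log2 above naive cells (limma adjusted p = 4.75e-09).

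The lowest members in Teff against naive cells lay at Stat3, Tox and Erg. The Tox intron peak held 1927, 1477 and 2142 in the Treg libraries, 653, 658 and 617 in anergic, 242, 147 and 135 in Teff, and 1218 and 940 in naive libraries. All 4 groups were separate in the order Treg, naive, anergic and Teff, and the signal fell by 2.66 ± 0.21 log2 in Teff against naive cells (limma adjusted p = 1.05e-09). Tox encodes a nuclear factor of T cell development and exhaustion. The Stat3 peak, 12.9 kb upstream, held 366, 432 and 370 in the Treg libraries, 66.3, 39.0 and 3.36 in anergic, 31.2, 31.4 and 38.3 in Teff, and 219 and 246 in naive libraries. The signal fell by 2.76 ± 0.65 log2 in Teff against naive cells (limma adjusted p = 0.00164). The Erg peak, at an ETS factor gene, fell by 2.26 ± 0.31 in Teff against naive cells (limma adjusted p = 3.57e-06).

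Motifs were counted on both strands in the 300 bases around the centre of the 413 distal members and of all 25675 distal peaks. The counts are a description with no test. The window runs past the edges of narrower peaks. On chromosomes the median width was 248 bases in the set and 369 in all peaks. AAAGGTCA, the NR4A letters, was in 29 distal members (7.02%), against 1.78% of distal peaks. The NF-kB motif was in 70 (16.9%), against 6.68%, and TTCNNNGAA, the STAT letters, in 56 (13.6%), against 8.81%. Matches say that the letters are present, not that a factor binds. The NR4A letters contain AGGTCA, the ROR letters, which were in 21.1% of distal members and 17.1% of distal peaks. The letters AGATAA of GATA factors were in 17.7% and 13.8%, and the CRE letters TGACGTCA in 2.42% and 0.974%. E-box letters (CACCTG) were in 25.7% and 24.7%.

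In the same windows of distal peaks that were highest in anergic, Teff or naive cells, the NF-kB motif was in 9.68%, 4.92% and 2.61%. The NR4A letters were in 2.08%, 1.56% and 0.601% of them, and the STAT letters in 8.52%, 8.61% and 9.02%. The ROR letters were in 16.3%, 24.3% and 12.1%, and the GATA letters in 16.2%, 18.7% and 15.0%. Both were thus more frequent in peaks highest in Teff cells than in the Treg-high peaks. In the 183 distal Treg-high peaks with a margin of 1 or more, the shares were 8.20% for NR4A, 23.0% for NF-kB and 18% for STAT. The forkhead letters TGTTTAC were in 5.33% of distal members and 4.89% of distal peaks, and a 3-unit TTTG repeat in 0.242% and 0.600%. The AP-1 letters TGANTCA were in 16.9% and 15.3%.

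Other letters were less frequent in the distal members than in all distal peaks. NFAT (TGGAAA) was in 20.1% and 25.4%, IKZF (TGGGAA) in 16.5% and 21.2%, RUNX (TGTGGTT) in 10.4% and 14.7%, and the CTCF motif in 3.87% and 6.66%. CTCF was lower still in distal peaks highest in anergic, Teff or naive cells, at 0.790%, 0.0820% and 2.17%. In the same order NFAT was in 49.5%, 20.4% and 18.4% of those peaks, and IKZF in 20.8%, 19.7% and 17.5%. RUNX was in 14.1%, 26.4% and 19.8%. The lower NFAT and IKZF shares were therefore not particular to the Treg-high peaks. ETS (CCGGAA) was in 5.81% and 7.53%, but in 8.74% of distal members with a margin of 1 or more, so its direction turned with the margin. TCF/LEF (CTTTGAA) was in 7.02% and 8.51%, and T-box (AGGTGTGA) in 1.21% and 2.09%. The median GC content of the windows was 48.3% in distal members and 49.3% in all distal peaks.

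**Figure D5:**
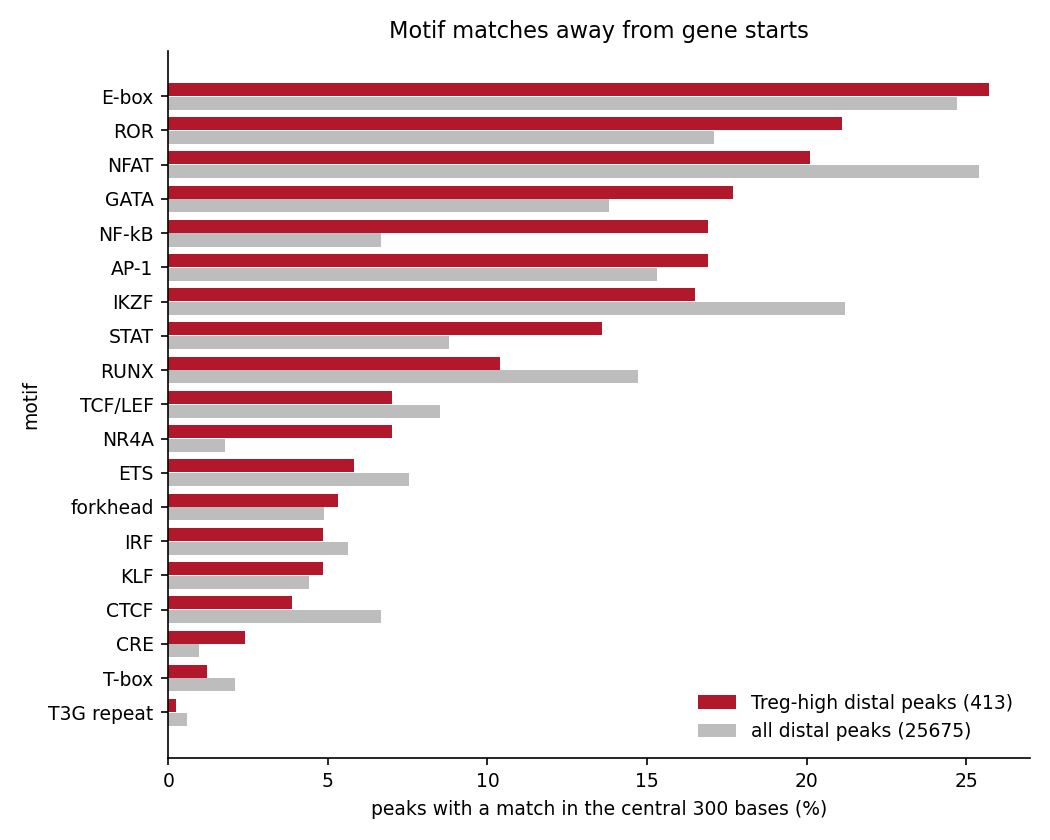
Share of the 413 distal Treg-high peaks and of all 25675 distal peaks with each motif in the 300 bases around the peak centre (horizontal, %). The Treg-high share is 16.9% against 6.68% for NF-kB, 7.02% against 1.78% for NR4A, 13.6% against 8.81% for STAT, 21.1% against 17.1% for ROR and 17.7% against 13.8% for GATA, while NFAT, IKZF and RUNX are among those with the lower share in Treg-high peaks. Distal peaks highest in Teff cells, not drawn, have ROR at 24.3% and GATA at 18.7%.

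The 29 distal members with the NR4A letters were picked out after their values were seen and were not tested as a group. Anergic cells were higher than Teff at 14 of them and lower at 3, with a median of 0.71 log2. At the 384 without the letters they were higher at 99 and lower at 42, with a median of 0.22, and of all peaks 15.9% were called higher and 16.8% lower. Members with other letters also had more calls higher than lower in anergic cells, 30 and 4 of 70 with AP-1, 24 and 4 of 83 with NFAT, 22 and 3 of 68 with IKZF, and 8 and 0 of 22 with forkhead letters. Arrdc1, Gsta1, Ppm1b and the Lrrc32 peak at +45.4 kb were among the 29, and the last was lower in anergic cells.

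Markers of other cells were checked because a sort can carry them. B cell genes had 4 of 11 with a peak, 2 with a Treg-high peak (Cd74 and Ebf1). Of the 9 peaks of these genes 2 were members (22.2%, against 1.19% of all chromosome peaks). Their summed signal was 2039 to 2307 in the Treg libraries, 1387 to 1666 in anergic, 922 to 1076 in Teff, and 1181 to 1209 in naive libraries. The defining B cell genes Cd79a, Ms4a1 and Pax5 had no peak, and the part of B cells in the Treg-high signal at Cd74 and Ebf1 was not tested. Myeloid (6 genes with a peak), CD8 and natural killer (5), erythroid (2) and housekeeping genes (12) had no member. These lists held 14, 30, 3 and 54 peaks. With 1.19% of all chromosome peaks in the set, having no member in lists this small says little about carried cells.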

How the data were processed

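Chromatin accessibility was measured by ATAC-seq in 11 libraries. As the series' design text records, trimming used Trimmomatic 0.38.1, and reads were aligned to mm10 with Bowtie2 2.3.3.1 and sorted with SAMtools 1.13. Genrich 0.5 called peaks per sample, with duplicates removed and the transposase cut site adjusted, and DiffBind 2.10.0 gave 38509 consensus peaks. The deposited table holds 1 scaled signal value per peak and library, and the authors' scaling method is not given in the sources used here. Dividing by each library's smallest value gave whole reads (within 0.01) for 100% of values.

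The plan was limma-trend on log2(signal + 1), with edgeR only if the values were raw counts. Since the values were scaled, limma-trend 3.58.1 (R 4.3.3) was used, with all 4 groups in 1 fit. Benjamini-Hochberg adjustment ran over the 38493 peaks that edgeR's filterByExpr kept (threshold 0.05). Differences are given with standard errors. edgeR 4.0.16 on the recovered reads called 12830 peaks for anergic against Teff, 19546 for anergic against naive and 15735 for Teff against naive. Peaks were given to the nearest RefSeq start site of GRCm38 (45756 transcripts) from the peak centre, and the nearest gene need not be the regulated one. Distances are signed, negative upstream. Sequences are from RefSeq's GRCm38 assembly. The steps were tested on simulated data. DESeq2 1.42.0, other scalings, pseudocounts, margins, windows and left-out libraries were alternatives.

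Peaks were named by rule: the widest margin per identity gene, the widest peak of each of the 10 genes with the widest margins, the 5 widest promoter margins (both with at least 50 mean Treg reads and a named gene), the 8 genes with most members, up to 3 genes per other list, peaks beside the threshold, and the 3 highest and lowest per contrast. The 2 Flicr peaks, the second Ctla4, Cish and Socs2 peaks, the Phlpp1 peak and the Swap70 peak at +32.4 kb were further named after their values were seen. The members, gene lists and motifs were chosen with earlier results of these data known.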

Additional observations from a re-analysis of the deposited data

How the results depend on the processing

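The number of Treg-high peaks was 776 when libraries were scaled to equal totals, 1022 with a margin of 0.5 and 202 with a margin of 1. Scaling to equal totals moved the median difference of Treg from anergic, Teff and naive cells by 0.13, 0.10 and 0.17 log2 over all peaks. TMM scaling gave 594 peaks, CPM of reads in peaks plus 1 gave 486 (432 shared with the set), and leaving out 1 library gave 443 to 600. Equal totals and the next 2 alternatives were chosen after seeing the data. Without the 3 shallowest libraries 554 peaks passed, 420 of them in the set, and 456 remained on chromosomes alone. The share away from gene starts was 93.9% beyond 500 bases, 82.5% beyond 2500 bases and 93.4% with a margin of 1.

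Among chromosome members, motif shares moved with the window, as wider windows hold more letters. With 200 bases NF-kB was in 12.7%, STAT in 9.87%, GATA in 11.4% and AP-1 in 12.5%. With 500 bases NR4A was in 9.87%, STAT in 22.8%, GATA in 22.4%, AP-1 in 20.6% and forkhead in 8.99%. In all peaks the shares for NR4A, NF-kB and STAT were 0.897%, 4.81% and 5.04% with 200 bases, and 2.31%, 9.44% and 12.9% with 500. With a margin of 1, NF-kB was in 22.4% and STAT in 17.3%.

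Leaving out 1 library gave called shares of 27.5 to 37.0% for anergic against Teff, 36.8 to 46.8% for anergic against naive and 26.1 to 39.4% for Teff against naive. Same-numbered samples had deviations correlated by -0.11 to 0.16, so the replicate numbers were not taken as pairs. A fit with replicate as a block called 37.0%, 44.4% and 34.9%. The 33 differences printed with an adjusted p kept their sign in 627 recomputed values, and 614 passed the threshold. The exceptions were 7 at Tnfrsf9, 5 at Fggy and 1 at Ctla4. The 34 named margins stayed above 0 in 544 recomputed values and at 0.7 or more in 531. Those margins come from the values that chose the peaks, and some settings could not change a given margin. Many peaks were named for wide margins or extreme contrasts. Both tallies are therefore descriptions and no support for the set. Depth limits peaks near 1 read, and 4 members averaged under 20 Treg reads.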
